A study of Mus musculus with 12 samples.

Results

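The lysosome genes described here are 43 listed genes of the vacuolar proton pump (V-ATPase), the cathepsins and other lysosomal hydrolases, the lysosomal membrane, and the MiT/TFE transcription factors. They were found by symbol among the row names of the count files, alone or as 1 part of a name that joins several symbols. All 43 were present among 19549 features, and all 43 were among the 10421 features tested. Of the 43 genes, 4 stand in joined features with a neighbour, Ctsa_Neurl2_Pltp, Ctsb_Fdft1, Ctsz_Nelfcd and Glb1_Tmppe, in which the reads of the partners cannot be told apart. Atp6v0c has annotated pseudogene copies in RefSeq, so its counts are uncertain to the extent that such copies share its reads.

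The cells were macrophages grown from the bone marrow of naïve female FVB mice, without a genetic alteration named in the labels. For 4 h they received IFNG (interferon gamma, 200 units/mL), a cytokine that drives classical activation, or IL4 (interleukin 4, 40 ng/mL), which drives alternative activation. From each polarization, polysome-associated mRNA (from gradient fractions with more than 3 ribosomes per message) and total mRNA were sequenced. This gave 4 groups of 3 libraries each, IFNG polysome, IL4 polysome, IFNG total and IL4 total. Unpolarized cells were not part of the samples, and each difference between the cytokines is IFNG relative to IL4. The labels give neither an age nor the animal or culture behind a replicate, and the p-values therefore measure only the spread between these libraries, which may be technical. A library is named below by its group and replicate number, as in IL4 polysome 3.

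Total counts were 3189688 to 8789480 in the IFNG polysome libraries, 2563955 to 5546605 in the IL4 polysome libraries, 10443200 to 22014162 in the IFNG total libraries and 12348819 to 16603339 in the IL4 total libraries. A single gene, Lars2, took 1.78 to 29.3% and 5.15 to 18.1% of the IFNG and IL4 polysome counts, and 0.341 to 2.00% and 0.903 to 1.47% of the IFNG and IL4 total counts. Both polysome libraries numbered 3 had the highest Lars2 share of their group. Together the 43 genes held 4.18 to 7.49% of the counts of a library. All 10 macrophage markers searched were tested, and their summed level was 10551 to 16352 CPM (library-scaled counts) in IFNG polysome, 7834 to 8636 CPM in IL4 polysome, 12494 to 24474 CPM in IFNG total and 7981 to 13911 CPM in IL4 total libraries. Of these markers, 4 on polysomes and 2 in total mRNA were higher with IFNG. The summed level of the neutrophil markers was 34.0 to 41.7, 16.3 to 23.4, 48.1 to 58.1 and 13.1 to 57.0 CPM in the same order of groups. Of the neutrophil markers 4 of 10 were tested, and S100a9 was higher with IFNG in total mRNA. Dendritic cell markers summed to 76.1 to 189, 30.6 to 52.1, 401 to 572 and 131 to 199.6 CPM in that order, of which Bst2 alone made 32.5 to 172, 29.1 to 50.0, 374 to 564 and 129.7 to 199 CPM. Of these markers 3 of 8 were tested, with Xcr1 and Clec9a higher with IFNG in each fraction, and Flt3 at 0. Erythroid and megakaryocyte markers summed to 36.6 to 117, 157.5 to 329, 336 to 767 and 528 to 1105 CPM, nearly all of it Pf4 (35.9 to 116, 154.9 to 328, 336 to 766 and 527 to 1104 CPM), with 2 of 5 tested and Pf4 lower with IFNG on polysomes. Stromal markers summed to 7.39 to 47.1, 11.0 to 15.0, 2.94 to 14.4 and 6.77 to 12.9 CPM, with 5 of 7 tested and Pecam1 lower with IFNG on polysomes. The lymphocyte markers summed to at most 0.508 CPM and the mast cell markers to at most 1.45 CPM in any library, with Ms4a1, Cd3e, Cd3g, Nkg7 and Ncr1, and Cpa3, Fcer1a and Tpsb2, at 0. The part of these markers in the results was not tested. In such bulk samples, fewer cells of a type and less RNA per cell cannot be told apart.

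Lysosomes are the acidic compartment in which macrophages break down what they engulf and what autophagy delivers. The V-ATPase acidifies them: its cytosolic V1 sector hydrolyses ATP and drives the membrane-embedded V0 sector, which carries protons across the membrane. The low pH activates cathepsins, most of them proteases, and the hydrolases of lipids and glycans. The MiT/TFE factors TFEB, TFE3, MITF and TFEC bind short E-box-like elements in promoters of lysosomal genes, and their activity is known to be controlled largely by retention in the cytosol.

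Most of the lysosome genes did not pass the test between IFNG and IL4. Those that did were cathepsins, V0 and V1 subunits, a membrane protein and a MiT/TFE factor. No lipid or glycan hydrolase, granulin or saposin precursor or V-ATPase accessory protein passed. Ctsc rose with IFNG in both fractions, whereas Ctsl, Atp6v0a1, Atp6v0d2 and Tfec were lower with IFNG in both. On polysomes 2 of 43 genes were higher with IFNG (4.65%, beside 7.54% of all features tested) and 5 were lower (11.6%, beside 6.58%). In total mRNA 1 gene was higher (2.33%, beside 7.08%) and 5 were lower (11.6%, beside 3.93%). Atp6v0d2, Ctsk and Tfec are among the genes called lower, Ctsk in total mRNA only. For these genes, all 3 libraries of a group reached 1.04 CPM, the level at which features were kept, only with IL4. Being tested and being called lower are therefore linked for them, and the shares called lower are not read as a result about the list. In either direction 14.1% of all features were called on polysomes and 11.0% in total mRNA. In all, 8 genes passed in at least 1 fraction (18.6%, beside 16.5% of all features), 5 of them in both in the same direction (11.6%, beside 8.61%), and 35 in neither. A gene was called at an adjusted p below 0.05 in edgeR's quasi-likelihood test, adjusted over all 10421 features. Log2 fold changes are IFNG over IL4, with the standard error of the fit after ±. The median log2 fold change of the 43 genes was -0.11 on polysomes and 0.21 in total mRNA, beside -0.06 and 0.04 over all features tested.

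**Figure D1:**
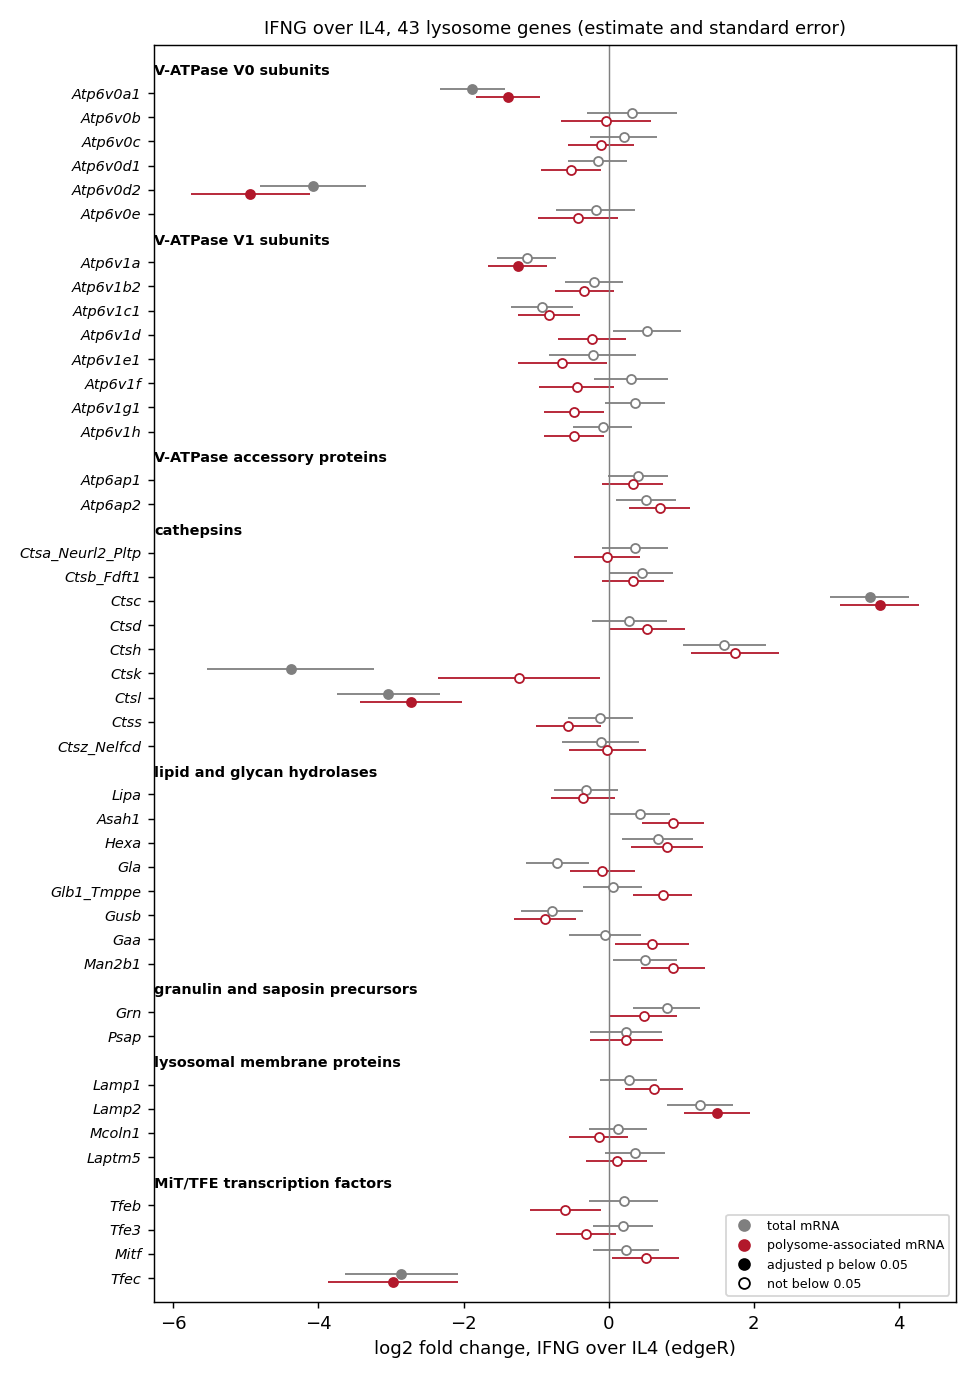
Log2 fold change of IFNG over IL4 (x axis, edgeR estimate with its standard error as the bar) for the 43 lysosome genes by subgroup (y axis), in total mRNA (grey) and polysome-associated mRNA (red), with filled points for an adjusted p below 0.05. Ctsc lies at 3.73 on polysomes and 3.60 in total mRNA, Atp6v0d2 at -4.94 and -4.07, and most genes have open points around 0.

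Among the cathepsins, Ctsc (chr7:88278024-88315861; positions are RefSeq gene spans on GRCm38) encodes dipeptidyl peptidase 1, which activates the serine proteases of leukocyte granules. It measured 1415, 1789 and 2649 CPM in the IFNG polysome libraries, against 191, 99.2 and 149 CPM in the IL4 polysome libraries (log2 fold change 3.73 ± 0.54, adjusted p = 4.59e-05). In total mRNA it measured 666, 793 and 1828 CPM with IFNG, against 72.9, 47.6 and 151 CPM with IL4 (log2 fold change 3.60 ± 0.54, adjusted p = 6.17e-05). Every IFNG library was above every IL4 library of its fraction, and the call held under all alternatives run.

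Ctsl (chr13:64361890-64370772) encodes cathepsin L, a cysteine endopeptidase that degrades proteins in the lysosome. It measured 79.9, 9.88 and 11.5 CPM in the IFNG polysome libraries, against 404, 201 and 71.9 CPM in the IL4 polysome libraries (log2 fold change -2.72 ± 0.70, adjusted p = 0.0112). The polysome groups overlapped, since IFNG polysome 1 lay above IL4 polysome 3. Total libraries gave 65.3, 22.2 and 75.2 CPM with IFNG, against 343, 533 and 463 CPM with IL4 (log2 fold change -3.04 ± 0.71, adjusted p = 0.00529), without overlap. On polysomes the call did not hold with IFNG polysome 2 (0.0601) or IL4 polysome 1 (0.0778) left out, where the numbers are adjusted p-values, which ran from 1.10e-06 to 0.0778 over all alternatives.

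Ctsk (chr3:95499210-95509387) encodes cathepsin K, the collagen-degrading protease of osteoclasts. It was close to the detection limit, with 0.705, 0 and 1.11 CPM in IFNG polysome, 2.04, 1.42 and 0.378 CPM in IL4 polysome, 0, 0.465 and 0 CPM in IFNG total and 1.89, 3.68 and 3.10 CPM in IL4 total libraries. The IFNG total libraries held 4 of its counts in all. It was lower with IFNG in total mRNA (log2 fold change -4.38 ± 1.15, adjusted p = 0.0132), and its polysome difference did not pass (log2 fold change -1.23 ± 1.11, adjusted p = 0.525). The call in total mRNA did not hold with IFNG total 1 (0.059) left out, and its adjusted p was 0.00127 to 0.059 over all alternatives. Only the IL4 total libraries all reached 1.04 CPM, the level at which features were kept, so the gene was tested through the group in which it was higher.

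Ctsh (chr9:90054267-90076095), an aminopeptidase of the cathepsin family, measured 32.2, 15.6 and 9.23 CPM in IFNG polysome and 10.2, 4.25 and 1.89 CPM in IL4 polysome libraries. Its total mRNA level was 145, 50.7 and 60.0 CPM with IFNG, against 43.4, 28.1 and 13.3 CPM with IL4, without overlap. Neither difference passed (log2 fold change 1.74 ± 0.61, adjusted p = 0.0586 on polysomes; log2 fold change 1.59 ± 0.57, adjusted p = 0.0798 in total mRNA). With the replicate number as a block, which pairs the IFNG and IL4 libraries, Ctsh was called higher with IFNG on polysomes (1.84, adjusted p = 0.00419) and in total mRNA (1.61, adjusted p = 0.00534). The blocked fit thereby called 3 of the 43 genes higher with IFNG in each fraction. Without the block Ctsh was also called on polysomes with the DESeq2 test (0.0313), no filter (0.00607), a mean of 10 CPM (0.0421), Lars2 left out (0.0455), IFNG polysome 3 left out (0.0289) or IL4 polysome 1 left out (0.0241), and in total mRNA with limma-voom (0.0387) or no filter (0.00877), where the numbers are adjusted p-values. Over all alternatives its adjusted p was 0.00419 to 0.23 on polysomes and 0.00534 to 0.393 in total mRNA.

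The other cathepsins, Ctsa, Ctsb, Ctsd, Ctss and Ctsz, passed in neither fraction. Their log2 fold changes were -0.56 (Ctss) to 0.53 (Ctsd) on polysomes and -0.12 (Ctss) to 0.46 (Ctsb) in total mRNA. Ctss, which trims the invariant chain of MHC class II molecules, measured 633, 2024 and 1041 CPM in IFNG polysome and 1374, 2464 and 1599 CPM in IL4 polysome libraries, which overlapped. Over the 9 cathepsins the median log2 fold change was -0.02 on polysomes and 0.28 in total mRNA.

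Within the V0 sector, the isoforms Atp6v0a1 and Atp6v0d2 were lower with IFNG. Atp6v0d2 (chr4:19876838-19922566) encodes the d2 isoform of the V0 stalk, known from osteoclasts, where it also takes part in cell fusion. It measured 1.32, 0 and 0.369 CPM in the IFNG polysome libraries, against 18.7, 43.9 and 4.16 CPM in the IL4 polysome libraries (log2 fold change -4.94 ± 0.82, adjusted p = 0.000218). In total mRNA it measured 0.824, 1.40 and 1.90 CPM with IFNG, against 23.3, 29.6 and 16.3 CPM with IL4 (log2 fold change -4.07 ± 0.73, adjusted p = 0.000495). The groups did not overlap, and the call held under all alternatives run. Its 3 libraries reached the filter level together only in the IL4 groups. The broadly expressed partner isoform Atp6v0d1 did not pass between the cytokines, with log2 fold changes of -0.51 on polysomes and -0.15 in total mRNA.

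Atp6v0a1 (chr11:101009422-101063719) encodes an isoform of the large V0 subunit a, which forms the proton path with the ring and directs the pump to its membrane. It measured 87.8, 71.9 and 133 CPM in the IFNG polysome libraries, against 306, 292 and 164 CPM in the IL4 polysome libraries (log2 fold change -1.38 ± 0.44, adjusted p = 0.0385). Total libraries gave 104, 84.4 and 47.2 CPM with IFNG, against 376, 313 and 181 CPM with IL4 (log2 fold change -1.88 ± 0.45, adjusted p = 0.00611). All IFNG libraries were below all IL4 libraries of the same fraction. The call in total mRNA held under all alternatives run. The call on polysomes did not hold with IFNG polysome 1 (0.0674), IFNG polysome 2 (0.154), IL4 polysome 1 (0.103), IL4 polysome 2 (0.125), IL4 polysome 3 (0.0526), Lars2 (0.0657) or the other groups (0.0528) left out, and its adjusted p was 0.0165 to 0.154 over all alternatives.

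In the V1 sector, Atp6v1a (chr16:44085402-44139702), the catalytic subunit that hydrolyses ATP, was lower with IFNG on polysomes. It measured 216, 182 and 105 CPM in the IFNG polysome libraries, against 453, 407 and 340.4 CPM in the IL4 polysome libraries (log2 fold change -1.25 ± 0.41, adjusted p = 0.0424). Its total mRNA level was 63.1, 75.8 and 123 CPM with IFNG, against 186, 175 and 213 CPM with IL4, which did not pass (log2 fold change -1.13 ± 0.41, adjusted p = 0.081). In both fractions the groups did not overlap. The difference in total mRNA was called with the DESeq2 test (0.0156), limma-voom (0.0437), a mean of 10 CPM (0.0407) or IFNG total 3 left out (0.0257), where the numbers are adjusted p-values. The polysome call lay near the threshold and did not hold with IFNG polysome 2 (0.0956), IFNG polysome 3 (0.201), IL4 polysome 1 (0.0962), IL4 polysome 2 (0.108), IL4 polysome 3 (0.0834), Lars2 (0.0621), both polysome libraries numbered 3 (0.239), the filter (0.0543) or the other groups (0.0668) left out, with an adjusted p of 0.00679 to 0.239 over all alternatives.

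All 8 V1 genes had a negative log2 fold change on polysomes, with a median of -0.48, and 5 of 8 had one in total mRNA, with a median of -0.14; of these differences, Atp6v1a on polysomes was the one called. The 6 V0 genes were likewise all negative on polysomes (median -0.47), but 2 of them turned positive with Lars2 left out of the counts, while the 8 V1 genes stayed negative. Of the 16 V-ATPase genes, 14 were negative on polysomes, with a median of -0.46, beside 5487 of all 10421 features. Most of these 14 differences did not pass. With Lars2 left out, 12 were negative and the median was -0.35, while the median of all features was 0.06 in place of -0.06. Of all features 4950 of 10420 were then negative. The accessory proteins Atp6ap1 and Atp6ap2, which assist assembly of the pump, had log2 fold changes of 0.33 and 0.70 on polysomes and 0.41 and 0.51 in total mRNA, and neither passed.

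The summed level of the 8 V1 genes was 881 to 1362 CPM in the IFNG polysome libraries, against 1478 to 2226 CPM in the IL4 polysome libraries, without overlap. This sum includes the called gene Atp6v1a, at 105 to 216 CPM with IFNG and 340.4 to 453 CPM with IL4. The gap between the sums is smaller than that between the Atp6v1a values, so a separation of the other V1 genes is not shown. In total mRNA it was 1909 to 2529 CPM with IFNG and 1649 to 2535 CPM with IL4, ranges that overlapped almost completely. The summed level of the 6 V0 genes was 866 to 2107 CPM in IFNG polysome and 1292 to 2254 CPM in IL4 polysome libraries, and 3519 to 8683 CPM in IFNG total and 3585 to 7520 CPM in IL4 total libraries.

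Of the lysosomal membrane proteins, Lamp2 (chrX:38399647-38456460), a heavily glycosylated protein that lines the lysosomal membrane and acts in chaperone-mediated autophagy, rose with IFNG on polysomes. It measured 375, 236 and 335 CPM in the IFNG polysome libraries, against 173, 107 and 54.8 CPM in the IL4 polysome libraries (log2 fold change 1.49 ± 0.45, adjusted p = 0.0302). In total mRNA it measured 254, 312 and 521 CPM with IFNG, against 163, 109.7 and 180.0 CPM with IL4, which did not pass (log2 fold change 1.26 ± 0.45, adjusted p = 0.0788) although the groups did not overlap. With the replicate number as a block the difference in total mRNA was called (1.29, adjusted p = 0.0473), as it was with the DESeq2 test (0.0366). The polysome call did not hold with IFNG polysome 3 (0.0504), IL4 polysome 2 (0.106), IL4 polysome 3 (0.121) or both polysome libraries numbered 3 (0.216) left out, and its adjusted p was 0.00526 to 0.216 over all alternatives. Its partner Lamp1 had log2 fold changes of 0.62 on polysomes and 0.28 in total mRNA and did not pass. Mcoln1, the calcium channel TRPML1, and Laptm5, a membrane protein of haematopoietic cells, had -0.14 and 0.11 on polysomes and did not pass either.

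None of the 8 lipid and glycan hydrolases passed between IFNG and IL4 in edgeR's test. Their log2 fold changes were -0.88 (Gusb, beta-glucuronidase) to 0.89 (Man2b1, an alpha-mannosidase) on polysomes and -0.78 (Gusb) to 0.67 (Hexa, the alpha subunit of beta-hexosaminidase) in total mRNA, with adjusted p-values of 0.187 to 0.933 and 0.318 to 0.978. Gusb measured 372, 232 and 340.0 CPM in the IFNG total libraries, against 532, 524 and 562 CPM in the IL4 total libraries, without overlap. Lipa, which releases cholesterol from engulfed lipoproteins, measured 1311, 606 and 1001 CPM in IFNG polysome and 1743, 1308 and 673 CPM in IL4 polysome libraries, which overlapped. Grn, the granulin precursor, and Psap, the precursor of the saposins that present lipids to hydrolases, had log2 fold changes of 0.48 and 0.24 on polysomes and 0.80 and 0.24 in total mRNA, and did not pass.

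Of the MiT/TFE factors, Tfec (chr6:16830927-16898464), a family member known from macrophages, was lower with IFNG in both fractions. It measured 0.793, 0 and 1.85 CPM in the IFNG polysome libraries, against 3.81, 3.19 and 12.1 CPM in the IL4 polysome libraries (log2 fold change -2.98 ± 0.89, adjusted p = 0.028). Total libraries gave 1.52, 0.814 and 1.99 CPM with IFNG, against 5.15, 5.09 and 21.7 CPM with IL4 (log2 fold change -2.86 ± 0.78, adjusted p = 0.0169). The groups did not overlap, and IL4 replicate 3 was the highest library in each fraction. Tfec reached the filter level in all 3 libraries only in the IL4 groups. The polysome call did not hold with IFNG polysome 1 (0.0552), IFNG polysome 2 (0.105), IL4 polysome 3 (0.177) or both polysome libraries numbered 3 (0.1) left out, nor with limma-voom, with an adjusted p of 0.0018 to 0.177 over all alternatives. The call in total mRNA did not hold with IFNG total 2 (0.0728) or IL4 total 3 (0.222) left out, with 0.000408 to 0.222.

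Tfeb, Tfe3 and Mitf did not pass between the cytokines. Tfeb measured 20.6, 38.5 and 23.3 CPM in IFNG polysome, 24.5, 51.7 and 48.8 CPM in IL4 polysome, 33.2, 68.5 and 18.7 CPM in IFNG total and 43.3, 39.7 and 21.2 CPM in IL4 total libraries. Tfe3 measured 206, 348 and 369, then 290.1, 398 and 457, then 218, 313 and 192 and 277, 211 and 143 CPM in the same groups, and Mitf 35.2, 33.0 and 21.1, then 28.2, 25.9 and 8.32, then 11.3, 21.7 and 21.5 and 14.7, 17.8 and 13.7 CPM. For each of the 3 factors the IFNG and IL4 libraries overlapped in both fractions, with log2 fold changes of -0.60 to 0.51 on polysomes and 0.20 to 0.24 in total mRNA.

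**Figure D2:**
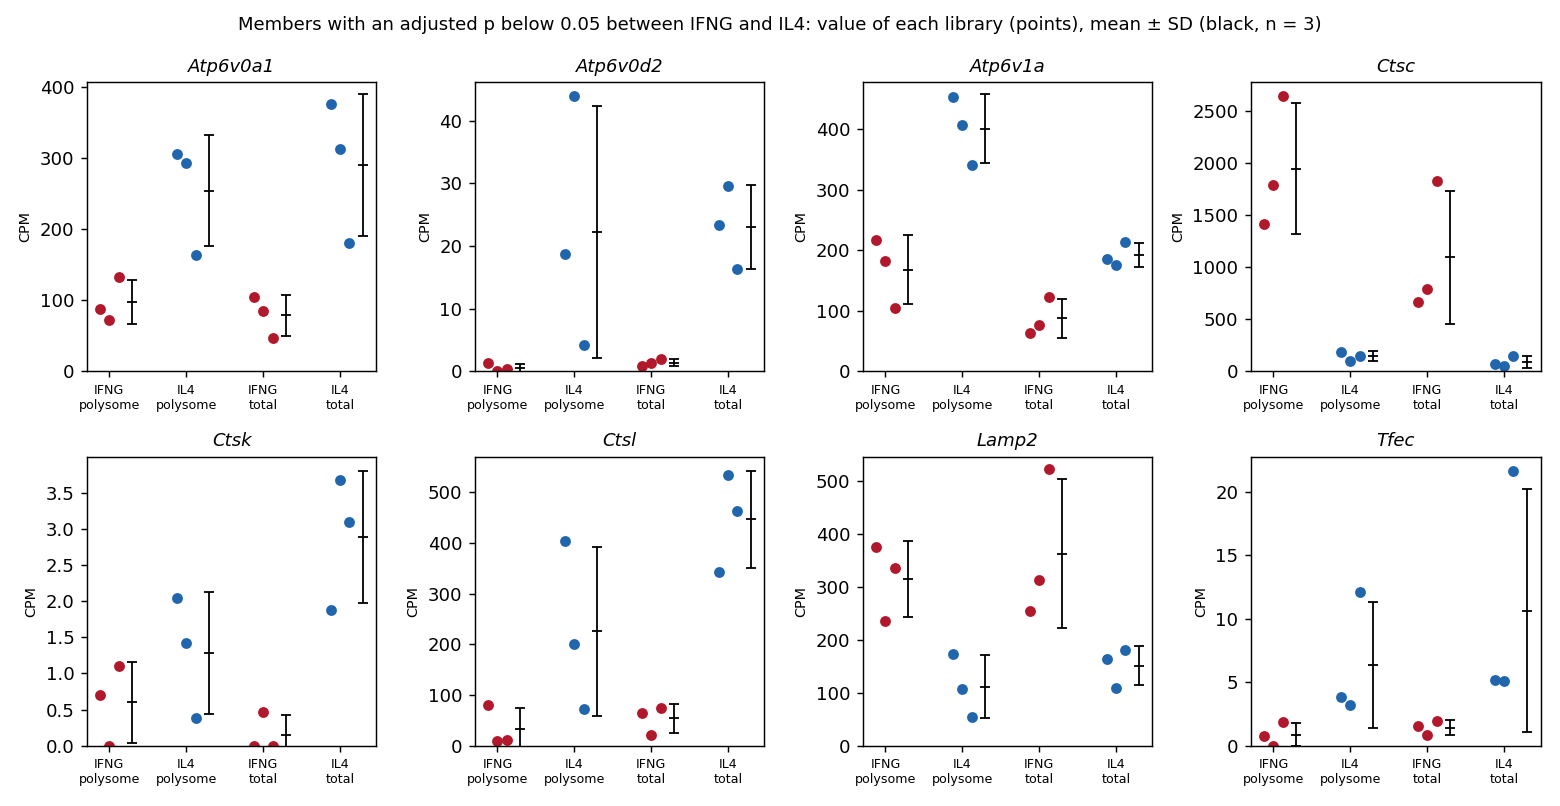
Level in CPM (y axis, linear, from 0) of each library (points) of the 8 genes called between IFNG and IL4 in either fraction, with the mean and SD of 3 libraries in black, for IFNG polysome, IL4 polysome, IFNG total and IL4 total (x axis). Ctsc and Lamp2 are higher in the IFNG groups, and the other 6 genes are higher in the IL4 groups, with overlap for Ctsl and Ctsk on polysomes.

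The promoters of the 4 called genes with the largest fold changes that RefSeq's table for GRCm38.p6 holds are shown, because these messages differed most between the cytokines. Each runs from 250 bases before the table's annotated start to 50 bases after it, 5′ to 3′ on the gene's strand. Both strands were searched for the STAT6 form of the IL4 response, in which TTC and GAA stand 4 bases apart, and for the E-box CACGTG and its extended form TCACGTGA, the core of the element bound by MiT/TFE factors. These motifs read the same on both strands, TCACGTGA contains CACGTG, and matches are in capitals.
Ctsc (chr7:88277835-88278134, plus strand): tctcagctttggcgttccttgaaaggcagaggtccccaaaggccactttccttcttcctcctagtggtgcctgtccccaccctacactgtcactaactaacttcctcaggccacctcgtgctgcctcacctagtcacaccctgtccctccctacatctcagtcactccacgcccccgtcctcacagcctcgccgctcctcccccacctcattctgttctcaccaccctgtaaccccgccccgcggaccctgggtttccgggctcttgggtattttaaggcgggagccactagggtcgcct
Ctsk (chr3:95498960-95499259, plus strand): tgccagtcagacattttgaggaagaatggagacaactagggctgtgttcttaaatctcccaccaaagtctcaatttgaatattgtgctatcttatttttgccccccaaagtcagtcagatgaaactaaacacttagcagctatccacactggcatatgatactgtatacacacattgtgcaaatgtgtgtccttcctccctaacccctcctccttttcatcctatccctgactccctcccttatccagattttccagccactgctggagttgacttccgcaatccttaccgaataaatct
Ctsl (chr13:64370471-64370770, minus strand): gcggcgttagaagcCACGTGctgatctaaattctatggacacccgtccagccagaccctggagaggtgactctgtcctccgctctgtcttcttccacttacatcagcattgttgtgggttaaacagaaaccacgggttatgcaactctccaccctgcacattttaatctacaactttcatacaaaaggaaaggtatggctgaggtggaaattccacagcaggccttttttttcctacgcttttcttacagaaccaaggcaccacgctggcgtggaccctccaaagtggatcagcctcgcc
Tfec (chr6:16898392-16898691, minus strand): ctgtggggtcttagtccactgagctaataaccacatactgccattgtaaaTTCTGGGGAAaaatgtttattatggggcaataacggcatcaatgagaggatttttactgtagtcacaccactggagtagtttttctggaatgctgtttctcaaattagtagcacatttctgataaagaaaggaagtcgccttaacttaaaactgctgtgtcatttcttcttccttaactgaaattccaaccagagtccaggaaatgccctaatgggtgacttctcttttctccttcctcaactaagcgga
Ctsl holds CACGTG 236 bases before the start, and Tfec holds the STAT6 form 200 bases before the start. The Ctsl window lies within the gene span given above, so its match is not upstream of the gene. The Ctsc and Ctsk windows hold none of these letters. The STAT6 form occurs in the window of 8.01% of 27025 genes and in 2 of the 35 lysosome genes with a promoter in the table (5.71%), Tfeb and Tfec. Here and below, a gene with several annotated starts was counted if any of its windows held the letters. The Tfeb match lies in a window inside the gene span, and the other Tfeb windows hold none. A match is a description of the letters, not of binding.

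TCACGTGA occurs in the window of 7 of 35 lysosome genes (20.0%), beside 1.12% of 27025 genes, and CACGTG in 12 of 35 (34.3%), beside 8.09%. These genes belong to the V0 sector (Atp6v0d1, Atp6v0e), the V1 sector (Atp6v1a), the cathepsins (Ctsa, Ctsd), the hydrolases (Gla, alpha-galactosidase A) and the membrane proteins (Mcoln1). The 48 bases around each match are shown, with that match in capitals, because TCACGTGA is the core of the MiT/TFE element. In each Ctsa line the other match stands in lower case. The V-ATPase accessory proteins, the granulin and saposin precursors and the MiT/TFE factors have no match in the windows searched.
Atp6v0d1 (chr8:105566041-105566088, minus strand): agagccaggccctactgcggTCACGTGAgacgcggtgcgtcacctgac
Atp6v0e (chr17:26676378-26676425, plus strand): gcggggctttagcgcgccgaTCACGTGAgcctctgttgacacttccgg
Atp6v1a (chr16:44139364-44139411, minus strand): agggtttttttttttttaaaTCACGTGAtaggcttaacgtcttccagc
Ctsa, upstream match (chr2:164833740-164833787, plus strand): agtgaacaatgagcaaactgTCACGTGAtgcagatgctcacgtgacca
Ctsa, downstream match (chr2:164833757-164833804, plus strand): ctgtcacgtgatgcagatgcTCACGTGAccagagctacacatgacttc
Ctsd (chr7:142387899-142387946, minus strand): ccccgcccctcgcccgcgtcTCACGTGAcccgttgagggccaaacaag
Gla, upstream match (chrX:134601206-134601253, minus strand): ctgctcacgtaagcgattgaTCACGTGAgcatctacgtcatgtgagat
Gla, downstream match (chrX:134601173-134601220, minus strand): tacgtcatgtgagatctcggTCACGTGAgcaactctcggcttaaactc
Mcoln1 (chr8:3500453-3500500, plus strand): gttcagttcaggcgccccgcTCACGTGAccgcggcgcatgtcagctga
The match starts 4 bases before the annotated start in Atp6v0d1, 46 in Mcoln1, 99 in Ctsd and 132 in Atp6v1a, and 228 and 195 before it in Gla. The Atp6v1a window (chr16:44139210-44139509) lies within the gene span given above, so its match is not upstream of the gene. In Ctsa 1 match starts 13 bases before and the other 4 bases after an annotated start inside the gene span, and in Atp6v0e it starts 2 bases after. The other Ctsa window (chr2:164832622-164832921), at the upstream end of the gene span, holds no match. Of these 7 genes, Atp6v1a was called between IFNG and IL4. Of the 5 genes called in both fractions, Atp6v0a1, Ctsc, Ctsl and Tfec have a promoter in the table, and none of these windows holds TCACGTGA. The Atp6v0a1 (chr11:101010148-101010447) and Ctsl windows lie within the gene spans, so the sequence upstream of these spans was not searched. Atp6v0d2, Atp6v1b2, Atp6v1c1, Atp6v1g1, Atp6v1h, Ctsb, Ctsh and Asah1 were not searched.

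The comparison of polysome-associated with total mRNA asks how far each message was represented among those with more than 3 ribosomes. Messages of the V0 ring and of some V1 subunits were lower on polysomes with both cytokines. With IFNG 10 of 43 genes were lower on polysomes (23.3%, beside 17.0% of all features tested) and 0 were higher (beside 8.93%). With IL4 11 were lower (25.6%, beside 15.9%) and 1 was higher (2.33%, beside 13.2%). In either direction 25.9% of all features were called with IFNG and 29.1% with IL4. Without overlap, 17.4% of all features were higher and 18.8% lower on polysomes with IFNG, and 23.4% and 25.7% with IL4. Of the 43 genes, 9 were lower with both cytokines (20.9%, beside 12.8% of all features), Atp6v0b, Atp6v0c, Atp6v0e, Atp6v1f, Atp6v1g1, Ctsh, Ctsz, Asah1 and Hexa. The median log2 fold change of the 43 genes, polysome over total, was -0.15 with IFNG and -0.26 with IL4, beside 0 and 0.06 over all features.

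**Figure D3:**
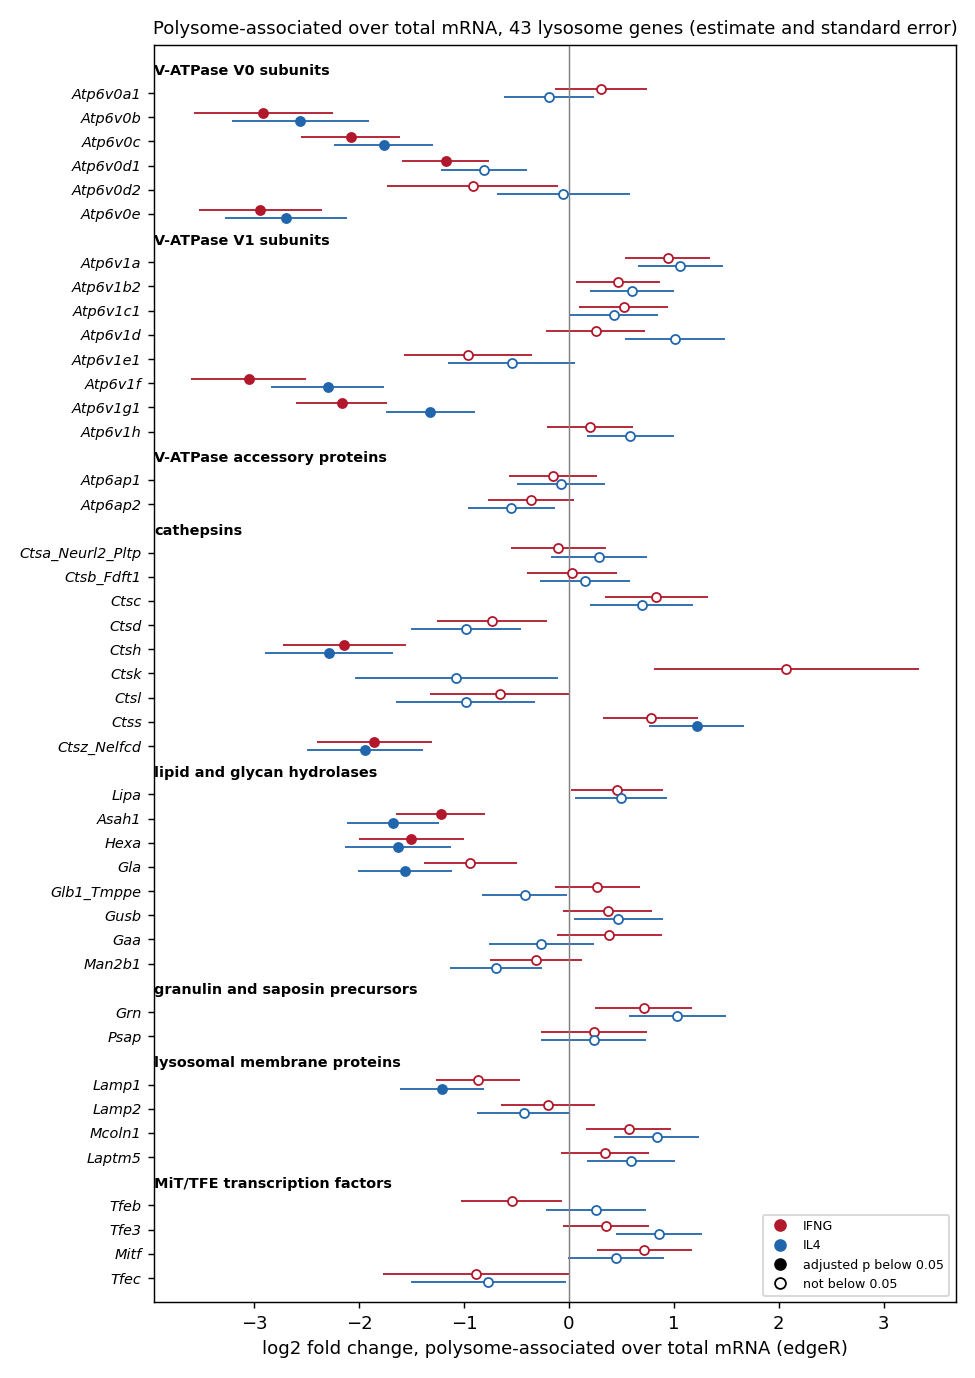
Log2 fold change of polysome-associated over total mRNA (x axis, edgeR estimate with its standard error as the bar) for the 43 lysosome genes by subgroup (y axis), with IFNG (red) and IL4 (blue), filled for an adjusted p below 0.05. Atp6v0b, Atp6v0c, Atp6v0e and Atp6v1f lie between -3.06 and -1.77 with both cytokines, while Atp6v1a lies at 0.94 with IFNG and 1.06 with IL4 and did not pass.

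In the V0 sector, Atp6v0b and Atp6v0c encode the proteolipid ring that carries the protons, and Atp6v0e a small membrane subunit. Atp6v0c (chr17:24163865-24169678) measured 1341, 565 and 852 CPM in IFNG polysome libraries, against 5150.3, 4063 and 2467 CPM in IFNG total libraries (log2 fold change -2.08 ± 0.48, adjusted p = 0.00371). With IL4 it measured 864, 1410.4 and 699 CPM on polysomes, against 4424, 3582 and 2121 CPM in total mRNA (log2 fold change -1.77 ± 0.47, adjusted p = 0.00952). Every polysome library was below every total library. Atp6v0b (chr4:117884330-117887333) measured 356, 75.5 and 45.4 CPM on polysomes, against 1982, 1211 and 412 CPM in total mRNA with IFNG (log2 fold change -2.91 ± 0.66, adjusted p = 0.00371), and 209.7, 176 and 104 against 1377, 921 and 595 CPM with IL4 (log2 fold change -2.56 ± 0.66, adjusted p = 0.00785). Atp6v0e (chr17:26676396-26699647) measured 168, 46.9 and 29.9 CPM on polysomes, against 972, 548 and 372 CPM in total mRNA with IFNG (log2 fold change -2.94 ± 0.58, adjusted p = 0.00154), and 97.7, 148 and 84.0 against 879.9, 868 and 391 CPM with IL4 (log2 fold change -2.70 ± 0.58, adjusted p = 0.00304). For both genes the polysome and total libraries did not overlap. The calls of these 3 genes held under all alternatives run. Atp6v0d1 (chr8:105524461-105566064), the stalk subunit, was lower on polysomes with IFNG, at 154, 106 and 149.6 against 474, 232 and 219 CPM (log2 fold change -1.18 ± 0.42, adjusted p = 0.041), and did not pass with IL4, at 166, 182 and 237 against 439.5, 307 and 280.5 CPM (log2 fold change -0.81 ± 0.41, adjusted p = 0.137). Its call did not hold with IFNG polysome 2 (0.157), IFNG polysome 3 (0.078), IFNG total 1 (0.311), IFNG total 2 (0.0509), both polysome libraries numbered 3 (0.0792), the filter (0.0522) or the other groups (0.0924) left out, nor among features of a mean of 10 CPM, with an adjusted p of 0.0172 to 0.311 over all alternatives. Atp6v0a1 and Atp6v0d2 did not pass with either cytokine (0.31 and -0.92 with IFNG, -0.19 and -0.05 with IL4).

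The V1 sector was divided. Atp6v1f, a subunit of the central rotor, and Atp6v1g1, of the peripheral stalk, were lower on polysomes. Atp6v1f (chr6:29467783-29470509) measured 170.3, 53.0 and 43.6 CPM on polysomes, against 1007, 712 and 511 CPM in total mRNA with IFNG (log2 fold change -3.06 ± 0.55, adjusted p = 0.000876), and 84.7, 189 and 90.4 against 669, 774 and 352 CPM with IL4 (log2 fold change -2.30 ± 0.54, adjusted p = 0.00484). Atp6v1g1 (chr4:63544765-63550701) measured 197, 100.3 and 83.1 CPM on polysomes, against 663, 455 and 596 CPM in total mRNA with IFNG (log2 fold change -2.17 ± 0.43, adjusted p = 0.00157), and 132, 206 and 195 against 441, 534 and 355 CPM with IL4 (log2 fold change -1.32 ± 0.42, adjusted p = 0.0234). Neither gene had overlapping libraries. The Atp6v1g1 call with IL4 did not hold with IL4 polysome 1 (0.0917), IL4 total 1 (0.0569) or IL4 total 2 (0.0967) left out, with 0.00399 to 0.0967 over all alternatives. The catalytic subunit Atp6v1a, whose values are given above, had positive log2 fold changes of 0.94 with IFNG (adjusted p = 0.0896) and 1.06 with IL4 (adjusted p = 0.0521), without overlap with IL4. It was called with IFNG under the DESeq2 test (0.0343), a mean of 10 CPM (0.041) or IFNG total 3 left out (0.0264), and with IL4 under the DESeq2 test (0.0189), limma-voom (0.0434), the replicate block (0.0423) or only the groups compared (0.0322). The other 5 V1 genes did not pass, with log2 fold changes of -0.96 (Atp6v1e1) to 0.52 (Atp6v1c1) with IFNG and -0.55 (Atp6v1e1) to 1.01 (Atp6v1d) with IL4. Over the 8 V1 genes the median was 0.23 with IFNG and 0.51 with IL4, and over the 6 V0 genes -1.63 and -1.29.

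Among the cathepsins, Ctsh and Ctsz were lower on polysomes. Ctsh, whose values are given above, had log2 fold changes of -2.14 with IFNG (adjusted p = 0.0108) and -2.28 with IL4 (adjusted p = 0.00964), without overlap. The joined feature Ctsz_Nelfcd, which holds Ctsz, a carboxypeptidase (chr2:174427494-174439039), measured 1691, 518 and 395 CPM on polysomes, against 4913, 2572 and 1952 CPM in total mRNA with IFNG (log2 fold change -1.86 ± 0.55, adjusted p = 0.0168). With IL4 it measured 1265, 871 and 502 CPM on polysomes, against 4069, 3901 and 2193 CPM in total mRNA (log2 fold change -1.95 ± 0.55, adjusted p = 0.0129), again without overlap. Ctss (chr3:95526786-95556405) was higher on polysomes with IL4, at 1374, 2464 and 1599 CPM, against 761, 1038 and 535 CPM in IL4 total libraries (log2 fold change 1.22 ± 0.45, adjusted p = 0.0471), without overlap. With IFNG it measured 633, 2024 and 1041 CPM on polysomes and 663, 771 and 721 CPM in total mRNA, which overlapped (log2 fold change 0.78 ± 0.45, adjusted p = 0.209). The Ctss call lay at the threshold: it did not hold with any single library of the 6 IL4 libraries left out, nor with DESeq2 size factors, no filter or Lars2 left out, with an adjusted p of 0.0186 to 0.181 over all alternatives. The Ctsh call for IFNG did not hold with IFNG polysome 2 (0.0551), IFNG polysome 3 (0.0502) or IFNG total 1 (0.0989) left out and that for IL4 with IL4 total 1 (0.0502) left out, with 0.000135 to 0.0989 and 0.000113 to 0.0502 over all alternatives. The Ctsz_Nelfcd call for IFNG did not hold with IFNG polysome 2 (0.092), IFNG polysome 3 (0.0715), IFNG total 1 (0.118) or both polysome libraries numbered 3 (0.0694) left out and that for IL4 with IL4 polysome 3 (0.0509) left out, with 0.000451 to 0.118 and 0.000477 to 0.0509.

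Of the hydrolases, Asah1, acid ceramidase (chr8:41340646-41397644), measured 40.7, 17.4 and 38.8 CPM on polysomes, against 72.5, 59.4 and 94.7 CPM in total mRNA with IFNG (log2 fold change -1.22 ± 0.43, adjusted p = 0.0389), and 23.3, 19.1 and 9.46 against 52.3, 51.6 and 64.2 CPM with IL4 (log2 fold change -1.68 ± 0.44, adjusted p = 0.0085), without overlap. Hexa (chr9:59539540-59565109) measured 850.4, 446 and 744 CPM on polysomes, against 3055, 1991 and 745 CPM in total mRNA with IFNG (log2 fold change -1.50 ± 0.50, adjusted p = 0.0311), and 473, 414 and 285 against 1763, 1221 and 644 CPM with IL4 (log2 fold change -1.63 ± 0.50, adjusted p = 0.0201), and overlapped with IFNG. Gla (chrX:134588169-134601005) was lower on polysomes with IL4, at 39.0, 26.9 and 14.0 against 74.6, 81.5 and 82.2 CPM (log2 fold change -1.56 ± 0.45, adjusted p = 0.014), and did not pass with IFNG, at 38.5, 16.2 and 20.7 against 65.4, 32.2 and 48.3 CPM (log2 fold change -0.94 ± 0.44, adjusted p = 0.118). The membrane protein Lamp1 (chr8:13159161-13175338) was likewise lower with IL4, at 341, 296 and 169.8 against 552, 692 and 624 CPM (log2 fold change -1.21 ± 0.40, adjusted p = 0.0282), and did not pass with IFNG, at 480.2, 285 and 476 against 789, 740.4 and 733 CPM (log2 fold change -0.87 ± 0.40, adjusted p = 0.111). Lipa, Glb1_Tmppe, Gusb, Gaa, Man2b1, Grn, Psap, Lamp2, Mcoln1, Laptm5 and the 4 MiT/TFE factors did not pass with either cytokine. Of the calls with IFNG, Asah1 did not hold with IFNG polysome 2 (0.182), IFNG polysome 3 (0.0572), IFNG total 1 (0.0926), IFNG total 3 (0.0985) or the other groups (0.0731) left out and Hexa with IFNG polysome 2 (0.14), IFNG polysome 3 (0.0627), IFNG total 1 (0.232), IFNG total 2 (0.0672) or both polysome libraries numbered 3 (0.0668) left out, with 0.0182 to 0.182 and 0.0065 to 0.232 over all alternatives. Of the calls with IL4, Hexa did not hold with IL4 polysome 2 (0.0539), IL4 polysome 3 (0.0698), IL4 total 1 (0.1), IL4 total 2 (0.0546) or both polysome libraries numbered 3 (0.0655) left out, Gla with IL4 polysome 3 (0.054) or both polysome libraries numbered 3 (0.0513) left out and Lamp1 with IL4 polysome 2 (0.0638), IL4 polysome 3 (0.105), IL4 total 1 (0.0529), IL4 total 2 (0.0975), IL4 total 3 (0.0514) or both polysome libraries numbered 3 (0.0904) left out, with 0.00155 to 0.1, 0.000862 to 0.054 and 0.00361 to 0.105.

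The number of genes called lower on polysomes with IFNG was 5 without IFNG total 1, without IFNG polysome 2 and without IFNG polysome 3, in place of 10. With IL4 it was 7 without IL4 total 1 and without IL4 polysome 3, in place of 11. Leaving Lars2 out of the counts kept 10 and 11 calls but moved the median of all features with IL4 to -0.13, in place of 0.06, and the calls over all features to 954 higher and 2028 lower, in place of 1375 and 1662.

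Whether polysome association differed between the cytokines was tested as the difference of both polysome over total changes. None of the 43 genes passed, and 0 of 10421 features did in edgeR's test, with 176 at an unadjusted p below 0.05, 1 called by DESeq2 and 0 by limma-voom. The 43 estimates ran from -0.87 (Atp6v0d2) to 3.15 (Ctsk, with a standard error of 1.59). Of the 16 V-ATPase genes 13 had a negative estimate, with a median of -0.33, beside -0.10 over all features, of which 5975 of 10421 were negative. With Lars2 left out, 12 were negative, with a median of -0.22, beside 0.01 over all features, of which 5136 of 10420 were negative. For no gene of the list was a difference between IFNG and IL4 in one fraction shown to be unlike that in the other fraction, Lamp2, Atp6v1a and Ctsk included (0.23, -0.12 and 3.15, adjusted p = 1 for each).

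Beyond the 43 genes, 151 further genes of the lysosome and its surroundings were listed in 9 groups, of which 138 were tested. Of these, 11 were higher (7.97%, beside 7.54% of all features tested) and 6 lower (4.35%, beside 6.58%) with IFNG on polysomes. In total mRNA 6 were higher (4.35%, beside 7.08%) and 4 lower (2.90%, beside 3.93%), which makes 17 genes in all. These shares are near or below those of all features, and the called genes are given as single genes. The largest differences among the called genes were those of 2 genes of cell fusion and osteoclasts. Itgb3, the integrin beta 3 chain (chr11:104608000-104670476), measured 1.15, 1.68 and 1.11 CPM in IFNG polysome libraries, against 90.3, 103 and 81.7 CPM in IL4 polysome libraries (log2 fold change -6.12 ± 0.52, adjusted p = 4.27e-08), and 0.698, 0.349 and 0.259 against 39.4, 51.7 and 31.9 CPM in total mRNA (log2 fold change -6.45 ± 0.53, adjusted p = 1.84e-08). Cdh1, E-cadherin (chr8:106603350-106670247), measured 3.35, 1.47 and 3.32 against 44.1, 43.9 and 126 CPM on polysomes (log2 fold change -4.70 ± 0.65, adjusted p = 2.79e-05) and 0.127, 1.28 and 0.950 against 15.4, 11.5 and 26.0 CPM in total mRNA (log2 fold change -4.56 ± 0.67, adjusted p = 4.56e-05). In both genes every IFNG library was below every IL4 library. With IFNG, Itgb3 lay near or below 1.04 CPM, the level at which features were kept, as did Cdh1 in total mRNA. The sizes of these fold changes therefore rest on few counts with IFNG. Before scaling, Itgb3 reached that level in all 3 libraries of a group only with IL4. Being tested and being called lower are therefore linked for Itgb3. The other 6 tested genes of that list did not pass. In each fraction 2 of 8 were thus lower (25.0%, beside 6.58% of all features on polysomes and 3.93% in total mRNA). This share is not read as a result about the list.

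Another a-subunit isoform of the V0 sector, Atp6v0a2, went the opposite way from Atp6v0a1. It measured 89.6, 98.2 and 125 CPM in IFNG polysome libraries, against 48.8, 26.9 and 28.7 CPM in IL4 polysome libraries (log2 fold change 1.57 ± 0.39, adjusted p = 0.0078), and 76.8, 83.6 and 65.5 against 29.7, 23.3 and 24.0 CPM in total mRNA (log2 fold change 1.55 ± 0.38, adjusted p = 0.00816). It was the one called of 13 tested genes of other V-ATPase isoforms and assembly. Cst7, cystatin F, an inhibitor of cathepsins that include the Ctsc product, measured 16.1, 15.3 and 11.8 CPM with IFNG, against 22.1, 39.7 and 59.0 CPM with IL4 on polysomes (log2 fold change -1.46 ± 0.43, adjusted p = 0.0254). Its total mRNA level was 62.8, 43.3 and 29.6 against 110.2, 86.2 and 105 CPM and did not pass (log2 fold change -1.15 ± 0.42, adjusted p = 0.0852).

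Among 26 tested genes of lysosomal membrane transport, 4 were higher with IFNG on polysomes (15.4%, beside 7.54% of all features tested) and 1 was lower (3.85%, beside 6.58%). Clcn7, the chloride-proton exchanger of lysosomes, stood at 854 ± 128 CPM in IFNG polysome and 283 ± 36.8 CPM in IL4 polysome libraries (mean ± SD, n = 3; log2 fold change 1.59 ± 0.46, adjusted p = 0.023). Slc29a3, a nucleoside transporter, stood at 321 ± 80.2 CPM in IFNG polysome and 111 ± 21.2 CPM in IL4 polysome libraries (log2 fold change 1.53 ± 0.40, adjusted p = 0.0131). Both were also called in total mRNA, at 2.30 and 1.74. Tmem192, a lysosomal membrane protein, was called on polysomes (1.73) and not in total mRNA (0.38). Slc11a1, a transporter of metal ions in phagosomes, was called in both fractions (1.63 on polysomes, 1.48 in total mRNA) and was added to the named genes after its values were seen. Tpcn1, an endolysosomal cation channel, was lower with IFNG, at 26.4 ± 14.2 CPM in IFNG polysome and 113 ± 4.11 CPM in IL4 polysome libraries (log2 fold change -2.10 ± 0.43, adjusted p = 0.00176).

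Of the other proteases and protein hydrolases 3 of 15 were higher with IFNG on polysomes (20.0%, beside 7.54% of all features tested) and 0 lower (beside 6.58%). They were the joined features Cap1_Ppt1 (1.48), with the thioesterase Ppt1, and Acp2_Ddb2 (1.43), with the acid phosphatase Acp2, and the aspartic protease Ctse (1.59). For sorting to lysosomes, 2 of 19 were higher (10.5%), the mannose 6-phosphate receptor M6pr (1.58) and Gnptab (1.79), which makes the mannose 6-phosphate tag, and 1 was lower (5.26%), the adaptor Gga2 (-1.25). Fnip2, a folliculin partner, was higher (1.31) as 1 of 14 genes of nutrient sensing (7.14%), and Atg7, which activates the conjugation of autophagy proteins, was lower (-1.23) as 1 of 17 genes of autophagy (5.88%).

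Of the 27 calls of these genes over both fractions, the following did not hold when 1 library was left out, with the adjusted p beside them. Without IFNG polysome 1 these were Gga2 and Atg7 (0.0711 to 0.0842). Without IFNG polysome 2 these were Ctse, Acp2_Ddb2, Slc29a3, Clcn7, Gga2, Fnip2, Atg7 and Cst7 (0.0559 to 0.179). Without IFNG polysome 3 these were Ctse, Slc11a1, Gnptab, Gga2, Fnip2, Atg7 and Cst7 (0.0522 to 0.103). Without IL4 polysome 1 these were Cap1_Ppt1, Ctse, Clcn7 and Gga2 (0.0511 to 0.0644). Without IL4 polysome 2 these were Atp6v0a2, Cap1_Ppt1, Ctse, Acp2_Ddb2, Slc11a1, Clcn7, M6pr, Gnptab, Gga2, Fnip2, Atg7 and Cst7 (0.0591 to 0.169). Without IL4 polysome 3 these were Ctse, Acp2_Ddb2, Slc11a1, Slc29a3, Tmem192, Clcn7, Gnptab, Gga2, Fnip2, Atg7 and Cst7 (0.0588 to 0.218). Without IFNG total 1 these were Cap1_Ppt1 and Slc11a1 (0.0648 to 0.305). Without IFNG total 2 these were Atp6v0a2, Cap1_Ppt1, Acp2_Ddb2, Slc11a1, Slc29a3 and Gga2 (0.0504 to 0.12). Without IFNG total 3 it was Cap1_Ppt1 (0.119). Without IL4 total 1 it was Cap1_Ppt1 (0.186). Without IL4 total 2 these were Atp6v0a2, Cap1_Ppt1, Acp2_Ddb2, Slc11a1 and Gga2 (0.0592 to 0.196). Without IL4 total 3 these were Cap1_Ppt1, Acp2_Ddb2 and Slc11a1 (0.0628 to 0.213). Without both polysome libraries numbered 3, an alternative added after seeing the data, 14 of the 17 polysome calls did not hold (0.0729 to 0.372). Itgb3, Cdh1 and Tpcn1 kept their calls in both fractions under all alternatives run, and Clcn7 kept its call in total mRNA. By choice of analysis, calls were lost for Gga2 on polysomes with DESeq2 size factors, limma-voom, no filter, a mean of 10 CPM, only the groups compared and Lars2 left out (0.0538 to 0.0927) and Ctse on polysomes with limma-voom (0.0784). They were also lost for Tmem192 on polysomes with limma-voom (0.0615), Cst7 on polysomes with limma-voom and only the groups compared (0.0518 to 0.078), Atg7 on polysomes with no filter, only the groups compared and Lars2 left out (0.0538 to 0.0708), Slc11a1 in total mRNA with DESeq2 size factors, a mean of 10 CPM and only the groups compared (0.056 to 0.07) and Cap1_Ppt1 in total mRNA with no filter and a mean of 10 CPM (0.0569 to 0.0686).

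**Figure D4:**
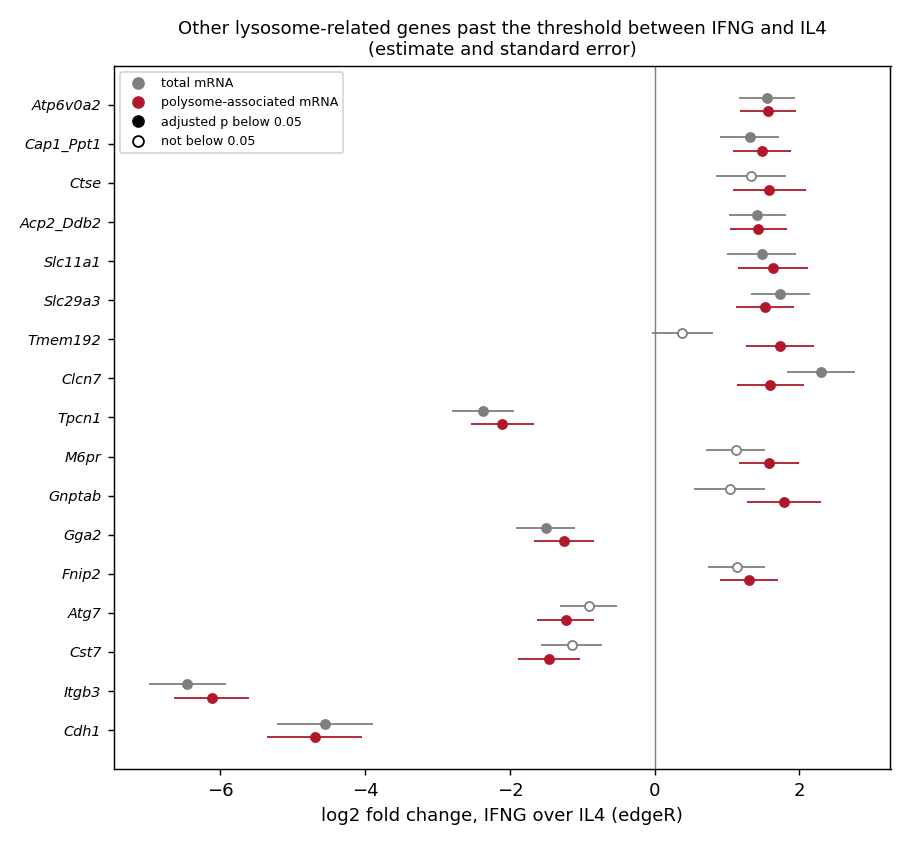
Log2 fold change of IFNG over IL4 (x axis, edgeR estimate with its standard error as the bar) for the 17 further genes called in either fraction (y axis, feature names), in total mRNA (grey) and polysome-associated mRNA (red), filled for an adjusted p below 0.05. Itgb3 and Cdh1 lie between -6.45 and -4.56, and the genes called higher on polysomes between 1.31 (Fnip2) and 1.79 (Gnptab).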

How the data were processed

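The deposited files give whole-number read counts per gene symbol, without normalization, and a column of log2 values scaled by the authors, per the file headers; the log2 values were not used. Per the submitters' processing notes, the tools were HISAT2, HISAT and limma and the build mm10. How reads were counted, with or without strand, and on which annotation is not given in the sources used here, and reads of overlapping and antisense genes cannot be told apart. Libraries were made by SmartSeq2, per the labels' protocols.

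Counts were analysed with edgeR 4.0.16 in R 4.3.3: filterByExpr (minimum count 10), TMM scaling and 1 robust quasi-likelihood model of the 4 groups over 12 libraries, without covariates. Adjusted p-values are Benjamini-Hochberg values over 10421 features, and the threshold was 0.05. The standard error is the log2 fold change divided by the square root of F. DESeq2 1.42.0 and limma 3.58.1 served as alternatives. The model was also run on simulated counts with a common dispersion for all features. These lacked the differences in Lars2 share and between replicates seen here, so the run does not measure the model's error on these libraries. The members and lists were chosen with earlier results of these data known. Members called in any comparison and the MiT/TFE factors were given by library; of each further list up to 3 called genes per direction with 10 CPM in 1 group were named. Some genes and a motif of the lists are not reported here. No lengths were used, so levels of different genes were not compared, and proteins were not compared.

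Same-numbered IFNG and IL4 libraries deviated together from their group means over 6637 features, with correlations of 0.138 to 0.753 in total mRNA and 0.162 to 0.369 on polysomes. Each lay above 0.1, the level taken to pair libraries, although IFNG total 2 matched IL4 total 1 best.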

Additional observations from a re-analysis of the deposited data

How the results depend on the processing

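The 35 calls of the 43 genes were recomputed under the alternatives, which gave 538 values. Of these, 455 kept direction and threshold, 83 kept the direction but lost the threshold, 0 reversed, and 16 calls were kept throughout. For the 27 calls of the further genes, 301 of 395 values kept direction and threshold, 94 lost the threshold, 0 reversed, and 7 calls were kept throughout. The counts of called genes that moved were small. Genes called higher with IFNG on polysomes numbered 3 with the DESeq2 test, no filter, a mean of 10 CPM, the replicate block or Lars2 left out, in place of 2. Genes called higher with IFNG in total mRNA numbered 2 with the DESeq2 test, limma-voom or no filter and 3 with the replicate block, in place of 1. Genes called lower with IFNG on polysomes numbered 3 with only the groups compared or Lars2 left out, in place of 5. On polysomes over total mRNA, genes called higher with IFNG numbered 1 with the DESeq2 test or a mean of 10 CPM, in place of 0. With IL4 they numbered 0 with DESeq2 size factors, no filter or Lars2 left out, 2 with the DESeq2 test, limma-voom or the replicate block, and 3 with only the groups compared, in place of 1. Features with a difference in polysome association numbered 1 with the DESeq2 test and 5 with no filter, in place of 0. Leaving out both polysome libraries numbered 3 (those with the highest Lars2 share), an alternative chosen after seeing the data, left 1 gene higher, 3 lower and 715 features called between the cytokines on polysomes, and 0 genes higher on polysomes with IL4.

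For IFNG over IL4 on polysomes, leaving out each library in turn gave 1 to 3 genes higher, 1 to 4 genes lower and 902 to 1775 features called. For IFNG over IL4 in total mRNA, leaving out each library in turn gave 1 gene higher, 4 to 7 genes lower and 771 to 1223 features called. For polysome over total mRNA with IFNG, leaving out each library in turn gave 0 to 2 genes higher, 5 to 12 genes lower and 1241 to 3119 features called. For polysome over total mRNA with IL4, leaving out each library in turn gave 0 genes higher, 7 to 10 genes lower and 1578 to 2592 features called. For the difference in polysome association, leaving out each library in turn gave 0 genes higher, 0 genes lower and 0 features called. The cause of these moves was not tested, but leaving out a library leaves fewer samples.

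The fits with the replicate number as a block called 3 genes higher and 5 lower with IFNG in each fraction. Same-numbered polysome and total libraries correlated at -0.0866 to 0.436 with IFNG and 0.00763 to 0.402 with IL4. Some pairs lay above 0.1 and others under it. The labels do not say whether a shared number means a shared preparation, so pairing of these fractions cannot be told. In polysome over total mRNA the block added Atp6v1e1 with IFNG (11 genes lower) and Atp6v1a with IL4 (2 higher). A block for each polarization's numbers left 10 and 11 genes lower. The block changed no other call. Depth limits Ctsk, Tfec and Atp6v0d2, and Itgb3 and Cdh1 among the further genes, which had few counts with IFNG.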
